A study of Mus musculus with 6 samples.

Results

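The 26S proteasome genes described here are the 39 of 46072 genes in the deposited tables whose symbol is Psma, Psmb, Psmc or Psmd followed by a number. They comprise 19 Psma and Psmb genes of the core particle, 6 Psmc genes of the ATPase ring, and 14 Psmd genes of the rest of the regulatory particle and its assembly. RNA was sequenced from mouse embryos at the 4-cell stage in 2 groups of 3 libraries: embryos that had received siRNA against Son as zygotes by microinjection, and control embryos. The Son product is a scaffold of nuclear speckles that takes part in the splicing of pre-mRNA. The library method, Smart-Seq2, primes cDNA on the poly(A) tail, copies whole transcripts and does not record the strand. The labels give no strain, no age of the parents, no number of embryos per library and no account of what the control embryos were given. They also do not say that libraries came from separate litters, so every p-value measures only the spread between these libraries.

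The proteasome degrades proteins tagged with ubiquitin. Its barrel-shaped core is closed at each end by a ring of alpha subunits and carries its proteolytic sites inside on the beta rings. A regulatory particle binds to the barrel end: its lid and ubiquitin receptors take up the substrate and remove the ubiquitin, while the ring of ATPases unfolds the chain and threads it into the core. In oocytes and early embryos, proteasomal degradation is part of the clearance of maternal proteins. Embryos can also hold much of the complex as protein made earlier, so mRNA levels do not give the amount of proteasome.

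Levels are counts per 1000000 units of a library (CPM), after scaling between libraries by the trimmed mean of M values (TMM), and fold changes are fitted log2 values of Son siRNA over control. Total estimated counts per library were between 104634855 and 118865650 units, and a floor of 3 read pairs corresponded to 0.0906 to 0.125 CPM; floors cover counting error only. Son itself had 41, 28.0 and 25.1 CPM in the siRNA libraries, against 249, 322 and 332 CPM in the control libraries (edgeR log2 fold change -3.26, SE 0.272, Benjamini-Hochberg adjusted p = 0.00991). Without siRNA 1, 2 or 3 its adjusted p in edgeR was 0.0648, 0.0709 or 0.136, and with the replicate number as a block 0.0617. Of 16 genes listed as markers for the 4-cell embryo, 15 were above the floor in every library, all but Cdx2. Not all of the 16 are particular to that stage. The summed level of the markers was 1731 to 2035 CPM in siRNA libraries and 2473 to 4537 CPM in control libraries. Dppa2 weighed most in the control sums, with 916, 878 and 990 CPM in siRNA libraries, against 3267, 1808 and 2534 CPM in control libraries. Pou5f1, Tead4, Klf5 and Nanog were also lower without overlap, Zp3, Gdf9 and Zscan4c were higher without overlap, and the other markers overlapped. The sum thus does not show that the markers fell as a set. The part of these differences in the results was not tested, nor was any difference in developmental progress between the groups. Cumulus markers summed to at most 0.846 CPM in siRNA libraries and 0.968 CPM in control libraries, and sperm markers to at most 0.905 CPM in siRNA libraries and 1.14 CPM in control libraries, with Foxl2, Inhba, Fshr, Pgr, Tnp2, Odf1, Smcp, Acr and Spata18 at 0 in all. In bulk samples such as these, fewer cells of a type and less RNA per cell cannot be told apart.

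Among the role groups of the subunit genes, the ATPase ring had the lowest median fold change after Son siRNA. Psmc5 was the 1 subunit gene that fell in the edgeR test. All 6 ATPase genes had fold changes below 0, with a median of -0.64, whereas the constitutive alpha and beta rings had medians of -0.095 and -0.15. Psmb10, the inducible trypsin-like subunit, had the highest fold change, 1.24, with an adjusted p of 0.104 in edgeR. Across the 38 subunit genes that passed the filter on low counts, 1 was lower and 0 were higher at an adjusted p of 0.05 in edgeR's quasi-likelihood test, against 0.899% and 0.0899% of all 17788 tested genes (0.989% in either direction). At an unadjusted p of 0.05 there were 7 lower and 1 higher, beside 8.86% and 5.88% of all tested genes. The DESeq2 Wald test called 3 lower (Psmc5, Psmc4 and Psmd1) and 1 higher (Psmb10), beside 4.74% and 2.89% of its 19176 genes with an adjusted p. Fold changes were below 0 for 26 of the 38 subunit genes and for 48.7% of all tested genes. The median was -0.16 for the subunits and 0.024 for all tested genes. Scaling by total counts moved both, to 0.12 and 0.31, and left the subunits 0.19 below all genes on the log2 scale under either scaling.

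**Figure D1:**
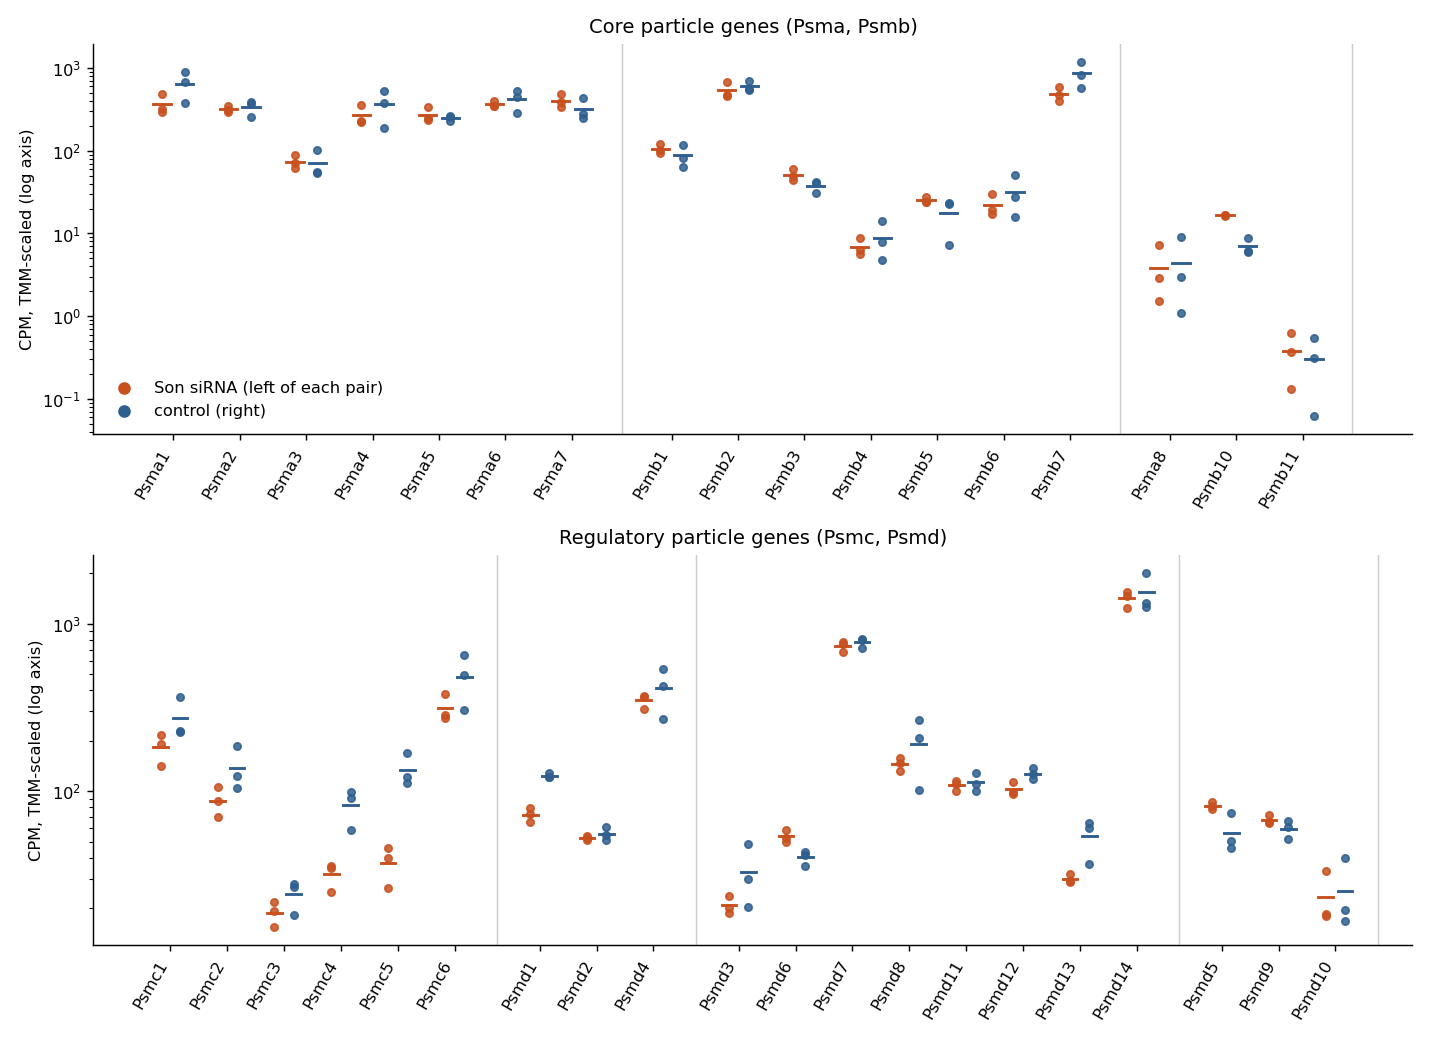
Level of each subunit gene in every library (TMM-scaled CPM, log axis), with Son siRNA libraries to the left of control libraries, points for libraries and bars for group means; grey lines part the role groups, and Psmb8 and Psmb9, which were at 0 in at least 1 library, cannot be drawn. Psmc5, with 26.5 to 46.0 CPM in siRNA libraries and 112 to 169 CPM in control libraries, and Psmc4 show the widest separation downwards, and Psmb10 the widest upwards.

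The promoter windows of 3 ATPase genes are shown: Psmc5 because it shares its start region with a second gene that fell, and Psmc4 and Psmc6 as members of the same ring. Each runs from 250 bases before to 50 bases after the transcript start in RefSeq (GRCm38.p6), 5′ to 3′ on the gene's own strand. Capitals mark matches, on either strand, to CCGGAA (the Ets core) or TGACNNNGC (the antioxidant response element core). Psmc5 lies at chr11:106255935-106256234 on the plus strand, with CCGGAA at bases 156 to 161. Psmc4 lies at chr7:28050043-28050342 on the minus strand, with no match to either. Psmc6 lies at chr14:45329574-45329873 on the plus strand, with TGACNNNGC read on the opposite strand at bases 24 to 32 and CCGGAA at bases 151 to 156.
Psmc5: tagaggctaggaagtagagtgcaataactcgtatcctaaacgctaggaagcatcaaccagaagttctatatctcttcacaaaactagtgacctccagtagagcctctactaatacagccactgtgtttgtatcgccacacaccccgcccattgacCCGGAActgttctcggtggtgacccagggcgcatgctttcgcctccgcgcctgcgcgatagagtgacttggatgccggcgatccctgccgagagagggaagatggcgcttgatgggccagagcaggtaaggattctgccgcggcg
Psmc4: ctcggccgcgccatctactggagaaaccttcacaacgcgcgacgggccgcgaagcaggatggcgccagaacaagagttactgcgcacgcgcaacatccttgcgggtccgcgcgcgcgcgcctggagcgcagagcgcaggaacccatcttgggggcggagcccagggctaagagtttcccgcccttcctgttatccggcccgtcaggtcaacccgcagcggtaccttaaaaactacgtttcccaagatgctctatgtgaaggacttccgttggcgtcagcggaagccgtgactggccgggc
Psmc6: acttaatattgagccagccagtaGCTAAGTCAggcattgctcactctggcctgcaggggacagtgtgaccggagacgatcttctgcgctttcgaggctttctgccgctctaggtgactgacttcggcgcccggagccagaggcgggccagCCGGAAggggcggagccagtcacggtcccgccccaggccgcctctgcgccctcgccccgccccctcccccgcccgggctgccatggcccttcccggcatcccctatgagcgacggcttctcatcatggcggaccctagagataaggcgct

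Windows were found for 32 of the 39 subunit genes, 34 windows in all out of 32851. CCGGAA, searched on both strands, stood in 47.1% of the subunit windows and in 14.9% of all windows, and 15 subunit genes had it, among them Psmc1, Psmc2, Psmc5 and Psmc6. CCAAT (the CCAAT box) stood in 38.2% of subunit windows and 37.4% of all. TGACNNNGC, whose form in proteasome promoters is read by the stress factors Nfe2l1 and Nfe2l2, stood in 14.7% of subunit windows and 12.4% of all, in Psmb5, Psmb6, Psmc6, Psmd12 and Psmd9. The palindrome bound by nuclear respiratory factor 1 stood in 2.94% of subunit windows, that of Psma2, and 0.615% of all. No match in a window says only that these letters are not there, and the marked matches do not overlap one another.

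The ATPase ring consists of Psmc1 to Psmc6, which use ATP to pull substrates into the core. Psmc5, on chromosome 11 from 106256154 to 106263120 (GRCm38, GENCODE vM21, plus strand, protein-coding, ENSMUSG00000020708), had 26.5, 46.0 and 40.1 CPM in the siRNA libraries, against 169, 122 and 112 CPM in the control libraries. The groups did not overlap. Its mean was 37.5 ± 10 CPM after Son siRNA and 134 ± 30.5 CPM in controls (SD, n = 3 each), so 28.0% remained. Psmc5 fell by 1.84 on the log2 scale (SE 0.288, edgeR adjusted p = 0.0319; DESeq2 adjusted p = 9.15e-07). This call was lost in edgeR without any 1 of the siRNA libraries (adjusted p = 0.256, 0.099 and 0.228 without siRNA 1, 2 and 3) and without control 1 or control 3 (adjusted p = 0.0717 and 0.0536), and held without control 2 (adjusted p = 0.036). With total counts as the scaling the adjusted p was 0.077. The DESeq2 call held in 6 of 6 such fits, with adjusted p from 1.99e-06 to 0.000216.

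Psmc4, which sits beside Psmc5 in the yeast and human ring, had 25.1, 36.0 and 34.8 CPM in siRNA libraries, against 99.5, 90.8 and 58.9 CPM in control libraries. These groups did not overlap either, and the siRNA mean of 31.9 ± 5.98 CPM was 38.4% of the control mean of 83.1 ± 21.4 CPM (SD, n = 3 each). Psmc4 had a fitted log2 change of -1.38 (SE 0.285; edgeR adjusted p = 0.0651; DESeq2 adjusted p = 0.000373). In edgeR it passed with a stricter filter of 50 units in 3 libraries (adjusted p = 0.0452) and with counts divided by 4 (adjusted p = 0.0394). It did not pass there with total counts (adjusted p = 0.159), no filter (adjusted p = 0.0838), DESeq2 size factors (adjusted p = 0.0613), the replicate number as a block (adjusted p = 0.205) or any 1 library left out (adjusted p from 0.057 to 0.336).

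The other 4 ATPase genes had smaller differences, and none passed either test. Psmc1 had 142, 216 and 191 CPM in siRNA libraries, against 364, 230 and 226 CPM in control libraries, without overlap (log2 fold change -0.58, SE 0.265, edgeR adjusted p = 0.355). Psmc2 had 70.0, 106 and 87.4 CPM in siRNA libraries, against 185, 104 and 124 CPM in control libraries (log2 fold change -0.65, SE 0.277, edgeR adjusted p = 0.319). The lowest Psmc2 control thus lay just inside the siRNA range. Psmc6 had 285, 379 and 274 CPM in siRNA libraries, against 652, 306 and 490 CPM in control libraries (log2 fold change -0.63, SE 0.290, edgeR adjusted p = 0.359). Psmc3, the lowest of the ring per kilobase, had 15.4, 22.0 and 19.3 CPM in siRNA libraries, against 27.9, 27.0 and 18.4 CPM in control libraries (log2 fold change -0.37, SE 0.295, edgeR adjusted p = 0.63). For Psmc2, Psmc3 and Psmc6 the groups overlapped. Control 1 was the highest control for 6 of the 6 ATPase genes, and without it the ring's median fold change was -0.36. All 6 stayed below 0 in each of 20 settings, with the ring's median between -0.85 and -0.33.

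**Figure D2:**
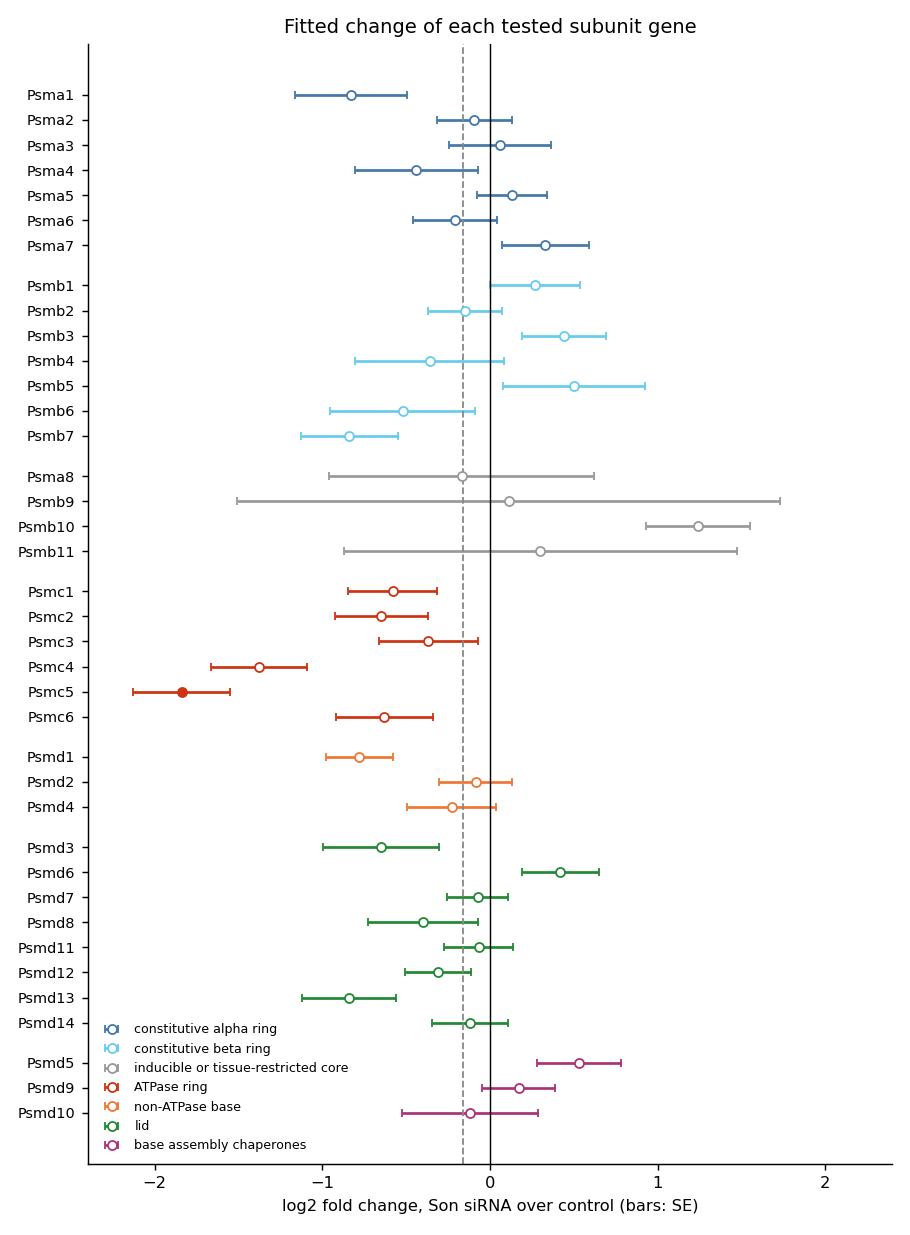
Fitted log2 fold change of Son siRNA over control for the 38 tested subunit genes, coloured by role, with bars for the SE; a filled circle marks an edgeR adjusted p below 0.05, the solid line 0 and the dashed line the subunits' median of -0.16. Psmc5 is the filled circle, and the 6 ATPase genes all lie left of 0, between -1.84 and -0.37.

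Measured within each library, the ring was low against the core. The mean log2 CPM of the 6 ATPase genes minus that of the 14 constitutive core genes was -1.06, -0.94 and -0.78 in siRNA libraries, against -0.19, -0.018 and -0.12 in control libraries. This difference does not depend on the scaling between libraries, and the groups stood apart, at -0.93 ± 0.139 after Son siRNA and -0.11 ± 0.0855 in controls (SD, n = 3 each). Against the 8 lid genes the ring stood at -1.09, -0.67 and -0.81 in siRNA libraries and at 0.17, -0.54 and -0.19 in control libraries, also without overlap. The base and lid genes minus the core gave -0.033, -0.33 and -0.0094 in siRNA libraries, against -0.36, 0.49 and 0.06 in control libraries, and here the groups overlapped. Psmc4 and Psmc5 are 2 of the ring's 6 genes, so their own values weigh in its mean, which was not taken without them. Of the other ring genes, Psmc1 did not overlap between groups, while Psmc2, Psmc3 and Psmc6 did. Separation from the core or the lid is thus not shown for the ring without Psmc4 and Psmc5. Together the 39 genes took 0.740%, 0.848% and 0.817% of all counts in siRNA libraries, against 0.866%, 0.790% and 0.717% in control libraries, so the groups overlapped in the total.

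**Figure D3:**
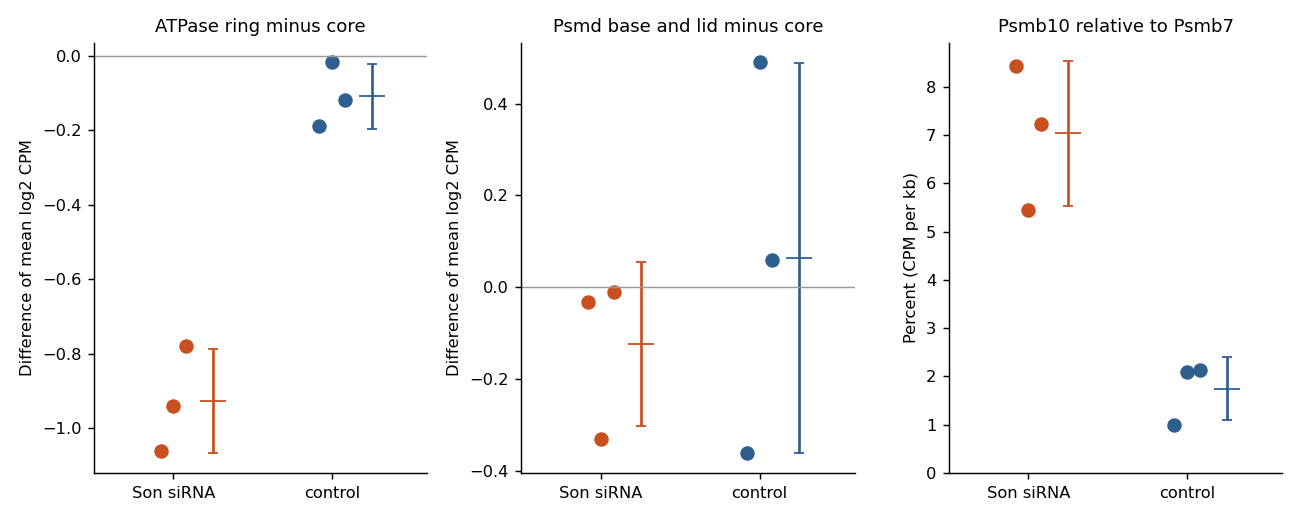
Within-library differences for Son siRNA (left) and control (right) libraries, with points for libraries and bars for mean ± SD (n = 3): mean log2 CPM of the ATPase ring minus the constitutive core, mean log2 CPM of the Psmd base and lid minus the core, and Psmb10 as a percent of Psmb7 in CPM per kilobase of merged exons. The groups stand apart in the first panel (-1.06 to -0.78 against -0.19 to -0.018) and the last, and overlap in the middle one. The last panel moves with both Psmb10 and Psmb7.

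The non-ATPase base holds the scaffolds Psmd1 and Psmd2 and the ubiquitin receptor Psmd4. Psmd1 had 65.5, 79.1 and 72.8 CPM in siRNA libraries, against 122, 122 and 128 CPM in control libraries. The groups did not overlap and both were tight, at 72.4 ± 6.80 CPM after Son siRNA and 124 ± 3.57 CPM in controls (SD, n = 3 each). Psmd1 had a fitted log2 change of -0.78 (SE 0.201; edgeR adjusted p = 0.112; DESeq2 adjusted p = 0.00429) and passed in DESeq2 in 4 of 6 fits with 1 library left out. Of its exon bases, 7.6% overlap other genes, Gm21972 and Htr2b, which had at most 0.135 CPM in any library. Psmd2, where ubiquitin shuttle proteins dock, had 51.4, 52.5 and 53.8 CPM in siRNA libraries, against 61.1, 54.9 and 51.3 CPM in control libraries (log2 fold change -0.086). Psmd4 had 311, 367 and 372 CPM in siRNA libraries, against 424, 539 and 269 CPM in control libraries (log2 fold change -0.23). Both overlapped between groups.

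The lid carries the deubiquitinase Psmd14, its catalytically inactive partner Psmd7, and the scaffold subunits Psmd3, Psmd6, Psmd8, Psmd11, Psmd12 and Psmd13. None of the 8 passed either test, and 7 had fold changes below 0, with a median of -0.21. Psmd13 had 28.7, 32.3 and 29.0 CPM in siRNA libraries, against 60, 64.6 and 36.6 CPM in control libraries, without overlap (log2 fold change -0.84, SE 0.280, edgeR adjusted p = 0.201; DESeq2 adjusted p = 0.0538). Of its exon bases, 10.1% overlap Sirt3, which had 0.229 to 1.39 CPM. Psmd12 had 98.9, 114 and 95.8 CPM in siRNA libraries, against 137, 119 and 126 CPM in control libraries, also without overlap (log2 fold change -0.31). Psmd6 alone among the lid genes lay above 0: it had 49.9, 58.7 and 52.7 CPM in siRNA libraries, against 43.5, 41.8 and 35.6 CPM in control libraries, and the groups did not overlap (log2 fold change 0.42, SE 0.228, edgeR adjusted p = 0.452). The remaining lid genes overlapped between groups. Psmd3 had 20.1, 23.6 and 18.8 CPM in siRNA libraries, against 29.9, 48.2 and 20.4 CPM in control libraries (log2 fold change -0.65, SE 0.345, edgeR adjusted p = 0.43). Psmd14 had 1246, 1532 and 1459 CPM in siRNA libraries, against 1263, 1330 and 2005 CPM in control libraries (log2 fold change -0.12). Fold changes were -0.075 for Psmd7, -0.069 for Psmd11 and -0.40 for Psmd8.

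In the core, the alpha ring gates the entry and its 7 constitutive genes overlapped between groups without exception. Psma1 had 291, 485 and 322 CPM in siRNA libraries, against 896, 373 and 677 CPM in control libraries (log2 fold change -0.83, SE 0.335, edgeR adjusted p = 0.298). Psma7 had 340, 479 and 390 CPM in siRNA libraries, against 436, 251 and 277 CPM in control libraries (log2 fold change 0.33, SE 0.260, edgeR adjusted p = 0.633). The controls of the alpha ring were far apart, with control 1 the highest for 6 of 7 genes and control 2 the lowest for 6 of 7. Psma6, the highest alpha gene per kilobase of merged exons (Psma1 per kilobase of the longest coding transcript), had 352, 400 and 345 CPM in siRNA libraries, against 533, 285 and 451 CPM in control libraries (log2 fold change -0.21). Psma3, the lowest by either length, had 70.9, 88.0 and 61.4 CPM in siRNA libraries, against 102, 54.1 and 55.2 CPM in control libraries (log2 fold change 0.060). Psma2, Psma4 and Psma5 had fold changes of -0.095, -0.44 and 0.13.

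The beta ring holds the proteolytic sites in Psmb5 (chymotrypsin-like), Psmb6 (caspase-like) and Psmb7 (trypsin-like), and its other members are structural. Psmb7, on chromosome 2 from 38588036 to 38644087, had 395, 593 and 466 CPM in siRNA libraries, against 1192, 578 and 834 CPM in control libraries. The groups overlapped through 1 control, and the mean was 485 ± 100 CPM after Son siRNA and 868 ± 308 CPM in controls (SD, n = 3 each; log2 fold change -0.84, SE 0.288, edgeR adjusted p = 0.214). Of its exon bases, 11.8% overlap Nek6 on the other strand, which had 0.363 to 2.22 CPM. Psmb6 had 17.1, 29.6 and 19.0 CPM in siRNA libraries, against 51.0, 27.5 and 16.0 CPM in control libraries (log2 fold change -0.52, edgeR adjusted p = 0.647). Psmb5 had 27.4, 24.0 and 24.2 CPM in siRNA libraries, against 23.2, 22.9 and 7.34 CPM in control libraries (log2 fold change 0.50, SE 0.422, edgeR adjusted p = 0.656). The Psmb5 groups did not overlap, though control 1 and control 2 lay close under the siRNA libraries and control 3 far below. Among the structural subunits, Psmb3 had 44.4, 60.1 and 49.2 CPM in siRNA libraries, against 40.3, 42.3 and 30.9 CPM in control libraries, without overlap (log2 fold change 0.44, SE 0.252, edgeR adjusted p = 0.476). Psmb2, the highest of the ring per kilobase, had 462, 674 and 478 CPM in siRNA libraries, against 693, 541 and 561 CPM in control libraries (log2 fold change -0.15, edgeR adjusted p = 0.827). Psmb4, the lowest, had 5.60, 8.92 and 6.28 CPM in siRNA libraries, against 14.1, 7.86 and 4.78 CPM in control libraries (log2 fold change -0.36, edgeR adjusted p = 0.786). Psmb1, Psmb2 and Psmb4 overlapped between groups, with a fold change of 0.27 for Psmb1.

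Inducible and tissue-restricted core subunits replace constitutive ones in immune cells (Psmb8, Psmb9 and Psmb10), thymus epithelium (Psmb11) or testis (Psma8). Psmb10, on chromosome 8 from 105935735 to 105938444, had 16.6, 16.1 and 16.8 CPM in siRNA libraries, against 5.94, 6.06 and 8.90 CPM in control libraries. The groups did not overlap. Its mean was 16.5 ± 0.358 CPM after Son siRNA and 6.97 ± 1.67 CPM in controls (SD, n = 3 each), or 237% of controls. Its fold change of 1.24 on the log2 scale (SE 0.310) had an adjusted p of 0.104 in edgeR, between 0.0812 and 0.411 over the settings tried there. DESeq2 gave an adjusted p of 0.000919, and it called Psmb10 in 6 of 6 fits with 1 library left out. Relative to Psmb7, the constitutive subunit it replaces, Psmb10 stood at 8.43%, 5.44% and 7.23% in siRNA libraries, against 1%, 2.10% and 2.14% in control libraries, in CPM per kilobase of merged exons. With the longest coding transcript as the length, chosen after seeing the data, it stood at 3.72%, 2.4% and 3.19% in siRNA libraries, against 0.441%, 0.928% and 0.944% in control libraries, still without overlap. These ratios move with both genes. The Psmb7 mean was 485 CPM after Son siRNA and 868 CPM in controls, with overlap between groups (edgeR adjusted p = 0.214).

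The other genes of this set lay near or below the floor or overlapped between groups. Psmb8 had 0 CPM in each siRNA library, against 0, 0.141 and 0 CPM in control libraries, and did not pass the filter. Psmb9 had 0.198, 0.154 and 0.211 CPM in siRNA libraries, against 0, 0.467 and 0.0519 CPM in control libraries (log2 fold change 0.11, SE 1.62). Psmb11 had 0.132, 0.624 and 0.370 CPM in siRNA libraries, against 0.541, 0.0616 and 0.311 CPM in control libraries, and Psma8 had 1.52, 7.17 and 2.92 CPM in siRNA libraries, against 9.04, 2.98 and 1.08 CPM in control libraries. These 3 overlapped between groups. Of 12 blood and immune markers, 4 were above the floor in every library, the summed level was 11.4 to 13 CPM in siRNA libraries and 7.65 to 16.8 CPM in control libraries, and Ptprc, Hbb-bs, Hbb-bt and Tyrobp were at 0 in all; their part in the Psmb10 values was not tested.

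The assembly chaperones Psmd5, Psmd9 and Psmd10 hold parts of the ATPase ring before the base is complete and are not part of the finished particle, as known from yeast and human cells. Psmd5, which binds Psmc1 and Psmc2, had 78.6, 85.7 and 81.7 CPM in siRNA libraries, against 50.3, 74.1 and 45.6 CPM in control libraries, without overlap (log2 fold change 0.53, SE 0.251, edgeR adjusted p = 0.37). Psmd9, which binds Psmc3 and Psmc6, had 65.0, 71.8 and 65.3 CPM in siRNA libraries, against 51.6, 66.1 and 61.6 CPM in control libraries (log2 fold change 0.17, edgeR adjusted p = 0.799). Psmd10, which binds Psmc4, had 18.6, 33.4 and 18.1 CPM in siRNA libraries, against 39.9, 16.9 and 19.6 CPM in control libraries (log2 fold change -0.12, edgeR adjusted p = 0.934). The median over the chaperones was 0.17, against -0.64 for the ring they help to build, and none passed either test.

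Levels of the subunit genes were far from equal although the complex holds its subunits in fixed numbers. In CPM per kilobase of merged exons, the 31 constitutive subunits ran over a 129-fold range (143-fold per kilobase of the longest coding transcript). Psmd14 was the highest by either length, at 501 CPM per kilobase of merged exons after Son siRNA and 544 in controls, and Psmb4 the lowest by either length, at 3.55 after Son siRNA and 4.58 in controls. Psmb2 (447 after Son siRNA and 497 in controls), Psmd7 (327 after Son siRNA and 344 in controls) and Psma6 (297 after Son siRNA and 343 in controls) followed by merged exons. Per kilobase of the longest coding transcript, over all 6 libraries, Psmb7 (583) stood above Psmd7 (480), and Psma1 (422) above Psma6 (379). The order of the 31 genes was alike in both groups (Spearman 0.947 across genes, which share their libraries and are not independent). Psmb4 was the 1 constitutive subunit under 10 CPM in both group means, and none of its 100-base stretches occurs in another annotated gene. Such stretches occur elsewhere for 23.9% of Psmd9, 23.7% of Psma5, 22.2% of Psmb5 and 13.4% of Psma3, and for none of Psmc5, Psmc4, Psmb10 or Psmd14. Gm26745, which shares stretches with Psmd9, had 0 CPM in every library. Gm8394, which shares them with Psma5, had 42.3 to 65.9 CPM, and Gm13835, which shares them with Psma3, had 9.88 to 25.8 CPM. How far this affects the levels was not tested.

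Library spread differed between the groups. Over the 34 constitutive subunits and chaperones, the SD of log2 CPM had a median of 0.2 in siRNA libraries and 0.415 in control libraries, and it was larger in control libraries for 28 of 34. The same held over all 6076 tested genes with at least 10 CPM on average, at 0.216 in siRNA libraries and 0.424 in control libraries. Of these 6076 genes, 4881 had the larger SD in control libraries, so the wider spread is not particular to the subunits. Control 1 was the highest control for 6 of 7 beta genes, as for the alpha ring and the ATPase ring. The lid followed another order, with control 2 the highest for 4 of its 8 genes and control 1 for 2.

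Several subunit genes start head to head with a protein-coding neighbour on the opposite strand. This was so within 1000 bases for 10 of the 39, and the share over all genes was not taken. Of the 10 pairs, 6 started within 200 bases of each other. One of these pairs is Psmc5 with Ftsj3, a pre-rRNA processing factor at chromosome 11 from 106249142 to 106256079, whose start lies 75 bases from that of Psmc5. In the Psmc5 window printed above, the annotated starts of Ftsj3 and Psmc5 fall at bases 145 and 220, with the CCGGAA match between them. Ftsj3 had 46.5, 54.8 and 43.8 CPM in siRNA libraries, against 161, 222 and 221 CPM in control libraries, without overlap. It fell by 2.06 on the log2 scale (SE 0.231, edgeR adjusted p = 0.0122), and its mean of 48.4 ± 5.77 CPM after Son siRNA was 24.0% of the 201 ± 34.7 CPM in controls (SD, n = 3 each). Without siRNA 1, 2 or 3 its adjusted p in edgeR was 0.171, 0.0709 or 0.149. In GENCODE vM21 the genes of this pair do not overlap and lie 74 bases apart. Libraries without strand cannot tell reads of overlapping genes apart, and how reads were assigned to this pair was not tested.

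In no other tested pair did both genes pass. Of 9 neighbours tested, Ftsj3 was the 1 that passed, beside 0.989% of all tested genes called in either direction. Psmc2 and Dnajc2, a ribosome-associated chaperone, start 32 bases apart; Dnajc2 had 239, 297 and 258 CPM in siRNA libraries, against 279, 217 and 231 CPM in control libraries (log2 fold change 0.13, edgeR adjusted p = 0.846, beside -0.65 for Psmc2). Psma7 and Ss18l1, a chromatin remodelling subunit, start 76 bases apart and had fold changes of 0.33 and 1.17 (edgeR adjusted p = 0.236 for Ss18l1). Psmb1 and Tbp, the TATA-binding protein, start 137 bases apart and had fold changes of 0.27 and -0.46 (edgeR adjusted p = 0.381 for Tbp). Psma2 had -0.095 beside 0.41 for Mrpl32, a mitochondrial ribosomal protein gene.

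**Figure D4:**
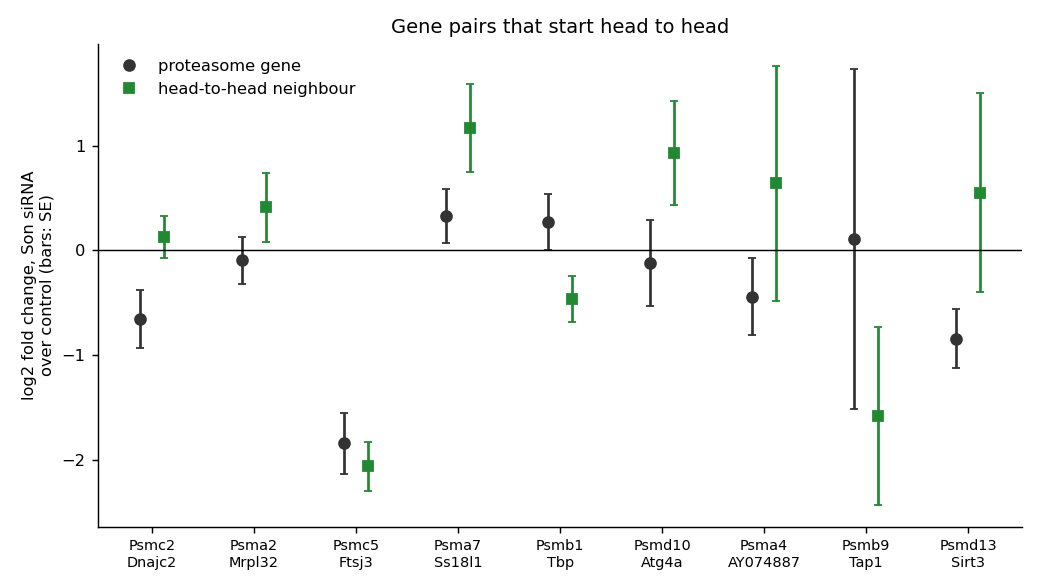
Log2 fold change (Son siRNA over control) of 9 subunit genes, as circles, and of the protein-coding gene that starts head to head with each, as squares, with bars for the SE; pairs run from the closest starts (32 bases, left) to the farthest (341 bases, right). Psmc5 and Ftsj3, at -1.84 and -2.06, are the pair that lies low together.

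The subunits with the most extreme fold changes also had the shortest introns. The median intron of the main transcript was 132.5 bases in Psmc5 (10 introns, 6 under 150 bases), 161 bases in Psmc4 (10 introns, 5 under 150 bases) and 112 bases in Psmb10 (7 introns, 4 under 150 bases). The median over the 37 tested subunit genes with introns was 897 bases, and 1541 bases over 13550 tested protein-coding genes. These 3 genes point in both directions, since Psmb10 lay above 0 and Psmc4 and Psmc5 below. Across the 37 genes the Spearman correlation of fold change with median intron length was 0.299, and 0.111 across all 13550; genes are not independent replicates. With a limit of 200 bases, chosen after the values were seen, the median fold change of all 802 tested protein-coding genes below it was -0.26, against 0.042 for the 12748 others. Of the genes below the limit 2.24% were called lower by edgeR, against 0.965% of the others. Shares called higher were not taken by intron length, and over all tested genes 0.0899% were called higher.

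**Figure D5:**
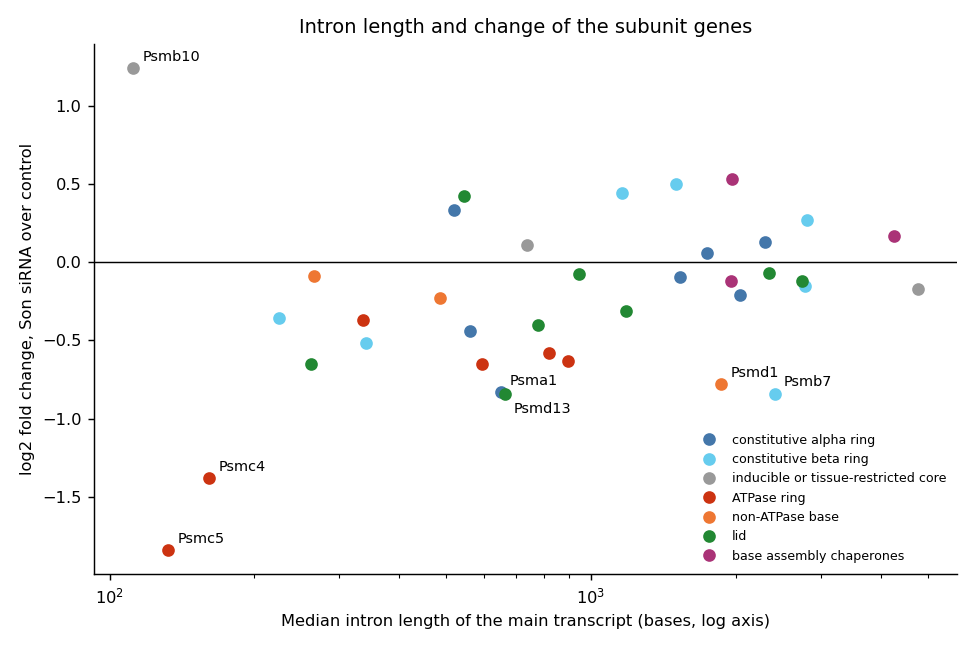
Log2 fold change (Son siRNA over control) of 37 subunit genes against the median intron length of the main annotated transcript (bases, log axis), coloured by role. Psmc5, Psmc4 and Psmb10, the 3 genes with a median under 200 bases, lie at -1.84, -1.38 and 1.24, at both ends of the fold-change axis.

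Of 36 further genes of the pathway (activators, core assembly factors, associated proteins, shuttles, ubiquitin genes and regulators), 35 were found by symbol and tested. In edgeR 0 passed, beside 0.899% lower and 0.0899% higher of all tested genes. At an unadjusted p of 0.05 there were 3 lower and 6 higher, beside 8.86% and 5.88% of all tested genes. Fold changes were below 0 for 16 and above 0 for 19 (median 0.091). DESeq2 called 1 lower, Adrm1, and 2 higher, Psme3 and Psmg3, beside 4.74% and 2.89% of its genes with an adjusted p. Adrm1, a ubiquitin receptor of the regulatory particle, had 60.6, 81.1 and 66.1 CPM in siRNA libraries, against 180, 394 and 137 CPM in control libraries. The groups did not overlap, and 29.2% of the control mean remained (log2 fold change -1.78, SE 0.382, edgeR adjusted p = 0.0715; DESeq2 adjusted p = 0.000784). Uchl5, the deubiquitinase that Adrm1 recruits, lay on the other side, with 72.5, 104 and 80.2 CPM in siRNA libraries, against 42.2, 63.1 and 56.8 CPM in control libraries (log2 fold change 0.66, edgeR adjusted p = 0.27).

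Among the alternative activators, Psme3, which caps nuclear proteasomes, had 60.5, 66.8 and 73.8 CPM in siRNA libraries, against 33.9, 39.8 and 44.3 CPM in control libraries, without overlap (log2 fold change 0.77, SE 0.232, edgeR adjusted p = 0.16; DESeq2 adjusted p = 0.0207). Psme1, an interferon-inducible activator subunit, had 2.30, 3.11 and 2.48 CPM in siRNA libraries, against 10.6, 4.08 and 4.54 CPM in control libraries (log2 fold change -1.28, edgeR adjusted p = 0.247). It was the 1 of 5 activator and inhibitor genes below 0, and 4 lay above. Psme2 had 6.80, 7.86 and 7.75 CPM in siRNA libraries, against 4.82, 4.89 and 4.77 CPM in control libraries (log2 fold change 0.63, edgeR adjusted p = 0.406). Psmg3, a core assembly chaperone, had 74.9, 114 and 89.2 CPM in siRNA libraries, against 35.3, 62.2 and 47.3 CPM in control libraries (log2 fold change 0.94, SE 0.284, edgeR adjusted p = 0.161; DESeq2 adjusted p = 0.0389). The factors that raise proteasome genes under proteasome stress, Nfe2l1 and Nfe2l2, and the glycosidase Ngly1 that activates Nfe2l1, had fold changes of 0.28, 0.51 and 0.87, and 0 of the 3 passed either test. For comparison, the 8 subunits of the CCT chaperonin, another ATP-driven ring complex, all had fold changes below 0 (median -0.46). Of these 0 passed in edgeR, and 3 were lower at an unadjusted p of 0.05, beside 8.86% of all tested genes. In DESeq2 1 was lower, Cct5 (log2 fold change -0.92), named after its values were seen, beside 4.74% of its genes with an adjusted p. For 6 of 8 the groups did not overlap, all lower. Of the 38 tested proteasome genes 6 did not overlap and were lower and 5 did not overlap and were higher, beside 11.6% and 12.1% of all tested genes.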

How the data were processed

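The authors deposited 1 table per library of whole-number estimated counts, not normalized, for 46072 genes. The tools StringTie 1.3.3b and HISAT2 2.0.5 and the build GRCm38 are named in the submitters' processing notes; what each did, the annotation release and how counts were made is not given in the sources used here. Smart-Seq2 cDNA was prepared from embryo lysates, per the labels' protocols. No entry was blank or unassigned. A read pair was assumed to equal about 4 units, which is an inference from the values. Among small values, 26.4% to 32.4% per library were multiples of 4, which does not settle the size of a unit. The floors and the setting with counts divided by 4 rest on this assumption.

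Genes kept by filterByExpr were tested with edgeR 4.0.16 (R 4.3.3): TMM scaling, then glmQLFit with glmQLFTest for Son siRNA minus control over all 6 libraries with no block, and Benjamini-Hochberg adjustment over all 17788 genes with a threshold of 0.05. DESeq2 1.42.0 (Wald test) was an alternative, as were its size factors, total counts, other filters, counts divided by 4, a replicate block and leaving out each library; DESeq2 with a library left out was added after seeing the data. Alternatives for FPKM or TPM did not apply. By Ensembl identifier 45223 genes matched GENCODE vM21 on GRCm38, including all 39 proteasome genes, and 849 did not.

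Described in full were subunits past an adjusted p of 0.05 in either tool. Also described, per role, were the 2 with the smallest p and those highest and lowest per kilobase of merged exons. Values of other subunits, such as Psmb5, Psmb6, Psmd6 and Psmd12, were added after they were seen. For the rest of the pathway the 5 with the smallest p were described, and Psme2 was added after its values were seen. Members and lists were chosen with earlier results of these data known. Paaf1 was not found by symbol. Tested on simulated data for Son siRNA against control (16688 genes), the fit called 78 of 100 genes given a 4-fold change, 93 of 100 given an 8-fold change and 8 of 16488 left unchanged. Changed genes were drawn above a minimum level, and both groups had the same spread, whereas real control libraries spread more. Changes under 4-fold, as in every tested subunit, were not simulated, so these rates do not give the recovery for the subunits.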

Additional observations from a re-analysis of the deposited data

How the results depend on the processing

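TMM factors were 1.02 to 1.16 in siRNA libraries and 0.81 to 1.05 in control libraries. The 176 genes called by edgeR became 42 with total counts, 100 with no filter, 288 with a filter of 50 units in 3 libraries, 330 with counts divided by 4, 1464 in DESeq2 (62.1% of them lower, against 90.9% in edgeR) and 0 with a replicate block, and ranged from 0 to 2686 with 1 library left out; edgeR gave 0 without siRNA 1, 2 or 3 (1786, 2348 and 1733 at an unadjusted p of 0.05) and 64, 315 and 87 without control 1, 2 and 3, and DESeq2 gave 756, 1146 and 739 without siRNA 1, 2 and 3 and 1449, 2686 and 1965 without control 1, 2 and 3. The 1 subunit called became 0 with total counts, 2 with the filter of 50 units, 2 with counts divided by 4, 4 in DESeq2, 0 with the replicate block, and 0 to 9 with 1 library left out; DESeq2 gave 3, 4 and 3 without siRNA 1, 2 and 3 and 4, 9 and 5 without control 1, 2 and 3. The subunits' median of -0.16 became 0.12 with total counts and ranged from -0.35 to -0.046 with 1 library left out. With the replicate block Psmc5 was at -1.85 (edgeR adjusted p = 0.114) and Son at -3.29 (edgeR adjusted p = 0.0617). The labels do not say that a replicate number marks a shared litter or day, so the block was run only as an alternative. Correlations of deviations between same-numbered libraries were -0.303, -0.33 and 0.0507 over genes. With 3 libraries per group these cannot decide whether the libraries were paired. Without a library, the Son fold change ranged from -3.50 to -3.12, and its edgeR adjusted p was 0.0648, 0.0709 and 0.136 without siRNA 1, 2 and 3.

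Of the 38 tested subunits 22 kept their sign in every alternative, the ATPase genes, Psmb10, Psmb7, Psmd1 and Psmd13 among them, and the other 16 reversed in at least 1. Of these, 4 (Psma6, Psmb2, Psmd2 and Psmd7) reversed with total counts alone. That scaling put the median of all tested genes at 0.31, against 0.024 with TMM. It shifted genes by unequal amounts: Psmb9 went from 0.11 to 0.24 and Psma1 from -0.83 to -0.51. The cause of the reversals was not tested. With total counts Psma2 was at 0.22, Psma6 at 0.11, Psmb2 at 0.13, Psma8 at 0.083, Psmd2 at 0.21, Psmd4 at 0.018, Psmd7 at 0.22, Psmd11 at 0.21, Psmd14 at 0.19 and Psmd10 at 0.17. With the replicate block Psma8 was at 0.21. With 1 library left out, the edgeR values ranged from -0.26 to 0.029 for Psma2, -0.10 to 0.43 for Psma3, -0.047 to 0.23 for Psma5, -0.66 to 0.13 for Psmb4, -0.84 to 0.01 for Psmb6, -0.98 to 0.93 for Psma8, -0.46 to 2.81 for Psmb9, -0.29 to 1.01 for Psmb11, -0.46 to 0.016 for Psmd4, -0.14 to 0.03 for Psmd11, -0.24 to 0.13 for Psmd14 and -0.48 to 0.36 for Psmd10. In DESeq2 the reversed values were, without siRNA 1, 0.22 for Psma8 and 0.019 for Psmd10, and without siRNA 2, -0.092 for Psma3, -0.041 for Psma5 and -0.28 for Psmb11. Without siRNA 3, Psmd10 was at 0.03. Without control 1, Psmb4 was at 0.13, Psmb6 at 0.0051, Psma8 at 0.93, Psmb9 at -0.46 and Psmd10 at 0.35. Without control 2, Psma3 was at -0.11, Psmb11 at -0.20, Psmd4 at 0.003 and Psmd11 at 0.016. Without control 3, Psma2 was at 0.035, Psma3 at -0.082, Psmb9 at -0.30 and Psmd14 at 0.13.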
